A study of Mus musculus with 12 samples.

Results

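The mRNAs of 28 proteins of the small ribosomal subunit were followed across a Larp1 knockdown in mouse sensory neurons. They were chosen by name, as the rows of the count table whose gene identifier maps to the symbols Rpsa, Fau and 26 symbols that start with Rps, and all 28 were found among 15391 genes. All 28 also passed the filter on low counts, which kept 8773 genes. The cells were cultured adult dorsal root ganglion neurons from mice of genotype RPL22HA+/+;Advillin-Cre+, preconditioned by an injury of the sciatic nerve ahead of culture. One set of cultures received AAV-shLarp1, a virus that delivers a short hairpin RNA against Larp1, and the other a control virus, named AAV-Control for the immunoprecipitates and AAV-shControl for the input. RiboTag attaches an HA tag to the ribosomal protein RPL22, a large-subunit protein, wherever the Cre is active, here under Advillin, which marks sensory neurons. An antibody against HA then recovers tagged ribosomes with the mRNA bound to them. The 4 groups were the shLarp1 immunoprecipitate (IP), the control IP, the shLarp1 input and the control input, and every group carried the tag, the Cre and the nerve injury. The labelled source of the RNA is the culture, although the extraction protocol describes lysate of ganglia that were collected fresh.

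The small ribosomal subunit binds the mRNA, scans it for the start codon and decodes it. Its proteins lie on a ribosomal RNA core with a head and beak, a body and a platform. In mammals nearly all mRNAs for cytosolic ribosomal proteins begin with a C followed by a run of pyrimidines, the terminal oligopyrimidine (TOP) tract, which lets the kinase complex mTORC1 turn their translation up or down together. LARP1 is an RNA-binding protein that holds the cap and the TOP tract, represses translation of such mRNAs when mTORC1 is inactive and protects them from decay. In neurons these mRNAs are also known to travel into axons.

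The sequences around the annotated starts of the mRNAs with the 4 lowest and the 4 highest changes in the IP are shown. LARP1 reads the TOP tract, which stands at the very start of an mRNA, whereas the runs marked here may lie elsewhere. Capitals mark the longest run of C and T that starts with C within the window described after them, and letters outside that window are context.
Rps12: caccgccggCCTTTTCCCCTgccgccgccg
Rps2: ttccgcggcgCCTCCCTCTT
Rps19: ccccgtcgttCCCTTTCCC
Rps28: gtgacgactctgtCCCgaggattcctgggt
Rps3: gcggcgtcattgCTCCCgccctatatacct
Rps3a1: acgtagacggcgCTCCCCgcccggctcgcg
Fau: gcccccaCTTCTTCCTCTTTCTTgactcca
The sequences are from RefSeq on GRCm38.p6, whereas the submitters' processing notes name GRCm39 for the counts. The Rps12 stretch is chr10:23787181-23787210 on the minus strand, and the Fau stretch is chr19:6057937-6057966 on the plus strand. The Rps2 stretch lies at chr17:24720093-24720112 (plus), the Rps19 stretch at chr7:24884623-24884641 (plus) and the Rps28 stretch at chr17:33824575-33824604 (minus). The Rps3 stretch lies at chr7:99483673-99483702 (minus) and the Rps3a1 stretch at chr3:86142623-86142652 (minus). Rps19 has several annotated starts, and the stretch with the longest run is shown. Rps27a, the other of the 4 highest, is named only. The window searched ran from 30 bases before the annotated start to 50 bases from it on, on the strand of the gene. In that window the run was 16 bases in Fau, 11 in Rps12, 10 in Rps2, 9 in Rps19, 6 in Rps3a1, 5 in Rps3 and 3 in Rps28. Of these marked runs only that of Fau covers the annotated start, from 3 bases before it. Counted from the annotated start, the run begins at base 9 in Rps12, 20 in Rps3, 29 in Rps3a1, 41 in Rps2 and 42 in Rps19. In Rps28 the marked run begins 29 bases before the start and is the first of runs of equal length. Another C-led run of 3 bases stands at its annotated start. The runs of Rps2 and Rps19 reach the last base of the sequence, as do those of Rps23 and Rps24, so these lengths are minima.

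Of the 24 small-subunit mRNAs with a sequence, 17 (70.8%) held a C-led run of at least 8 pyrimidines somewhere in this window, against 26.7% of the 6274 genes past the filter that had one. At the annotated start itself, a C with at least 4 pyrimidines after it stood in 7 of the 24 (29.2%), against 3.24% of those genes. Large-subunit mRNAs held the longer run in 30 of 35 (85.7%) and the run at the start in 7 of 35. A match is a description of these letters and not of a start used in these neurons. Run length and the change with shLarp1 were barely related across the 24 mRNAs, with a Pearson r of 0.05 and a Spearman rho of -0.02 in the IP, and 0.25 and 0.19 in the input; without the 4 runs that reach the end, r was 0.07 in the IP and 0.24 in the input. These points share their libraries and are not replicates. The 7 mRNAs with the run at the start had a median relative change of -0.09 in the IP and the 17 without it -0.10.

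Each group had 3 columns of estimated counts, with totals of 3176458 to 3177552 in the shLarp1 IP, 3126591 to 3128368 in the control IP, 759527 to 760140 in the shLarp1 input and 564095 to 564625 in the control input. Within a group the columns differed by little more than the sampling noise (median chi-square per gene 1.46 to 1.53, with 1.39 for noise alone), so they were summed and counted as 1 sample. No difference below therefore has a replicate check, and intervals cover counting error only. Larp1 itself had 55, 49 and 45 counts in the shLarp1 IP and 147, 141 and 154 in the control IP, which is 3.30-fold lower after scaling (log2 -1.72, 95% interval -1.999 to -1.45). In the input it had 8 counts with shLarp1 and 18 with the control virus. Rpl22, the tagged protein's gene, had a log2 change of -0.18 in the IP and -0.19 in the input.

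The IP held 15 of 15 sensory neuron markers, which summed to 12878 CPM (depth-scaled counts) with shLarp1 and 11299 with the control virus. In the input the same markers summed to 1605 CPM with shLarp1 and 2684 with the control virus, and none was at 0. Marker by marker, 7 of 15 had a scaled log2 ratio of shLarp1 to control above 0 in the IP (median -0.09) and 5 of 15 in the input (median -0.30). The 12 Schwann cell and satellite glia markers gave 785 and 773 CPM in the shLarp1 and control IP, and 371 and 416 in the shLarp1 and control input. The 10 macrophage markers gave 143 and 130 CPM in the IP, and 69.8 and 128 in the input, shLarp1 given first in both. For 8 fibroblast markers the sums were 231 (shLarp1) and 233 (control) in the IP and 314 (shLarp1) and 291 (control) in the input, and 6 vessel markers gave 111 and 115 in the IP and 55.3 and 105 in the input in the same order. All markers of these lists were above 0 in the IP groups, while 1 fibroblast marker was at 0 in both inputs and 2 vessel markers in the shLarp1 input. Their part in the results below was not tested. In such bulk samples, fewer cells of a type and less RNA per cell cannot be told apart.

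With shLarp1, the small-subunit mRNAs took slightly less of the ribosome-bound RNA. Their summed counts were 7.09% of all counts in the shLarp1 IP (exact 95% interval 7.07 to 7.10) and 7.35% in the control IP (7.34 to 7.37). In the input they were 5.598% with shLarp1 (5.57 to 5.63) and 7.06% with the control virus (7.02 to 7.10). These shares move with the rest of the library. Genes with no counts in any input column held 13.7% of the shLarp1 IP and 16.1% of the control IP. With those genes left out, the small-subunit mRNAs were 8.21% of the shLarp1 IP and 8.76% of the control IP. Whether IP and input were counted against the same annotation is not given in the sources used here, and every IP-to-input ratio and interaction below assumes that they were. A further 773 genes whose scaled level was more than 4-fold lower in IP than in input on average over both viruses, among them Rps12 and Rps28, held 65.2% of the shLarp1 input and 56.1% of the control input. Changes of single mRNAs are therefore given as a relative log2 change, the log2 ratio of shLarp1 to control scaled by TMM (edgeR's trimmed mean of ratios) minus the median log2 ratio of all genes tested, which is the same under any scaling of the groups.

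In the IP, 27 of the 28 mRNAs were below the median of all genes, by small amounts, and 1 was above it. Before the median of all genes (-0.08) was subtracted, all 28 log2 ratios were below 0; with upper-quartile or total-count scaling 21 were, and with TMM on a control IP column as reference 27 were. None was called, that is, had its whole interval beyond 1.5-fold, a size that 5.12% of all genes passed (4.4% lower). The counting interval lay wholly below the median of all genes for 23 mRNAs and wholly above it for 1, where 23.8% of all genes lay below and 20.7% above; among the 1918 genes with at least 1000 counts, 37.4% lay below and 32.2% above. The median relative change of the set was -0.10, and the 28 changes had an SD of 0.10 on the log2 scale, with 0.02 for counting error alone.

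**Figure D1:**
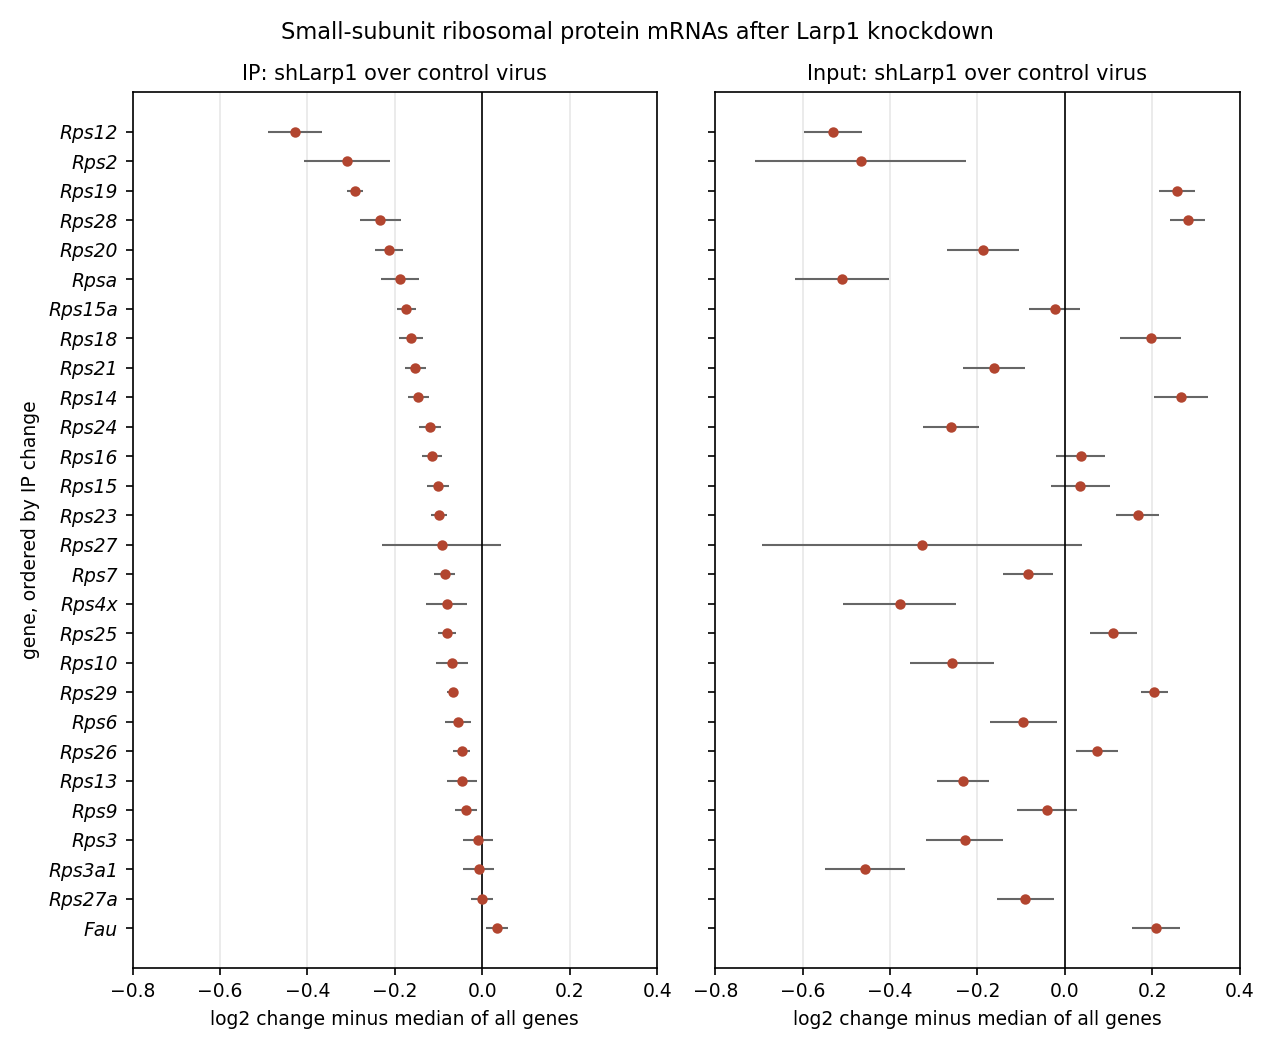
Relative log2 change (shLarp1 over control virus, minus the median of all genes, the vertical line) of the 28 mRNAs in the IP (left) and the input (right), with 95% counting intervals as bars; the order is that of the IP. The IP points lie between -0.43 and 0.03 and the input points between -0.53 and 0.28.

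By location, the median relative change in the IP was -0.11 for the head and beak, -0.09 for the body and -0.07 for the platform, with ranges that overlap. Rps12, a protein of the beak, had 1238, 1316 and 1229 counts in the shLarp1 IP and 1581, 1646 and 1613 in the control IP. Its relative log2 change of -0.43 (interval -0.49 to -0.37) was the lowest of the set, and the counts of the groups did not overlap. Rps19, a head protein needed for maturation of the small subunit and mutated in Diamond-Blackfan anaemia, had 14883, 15141 and 15042 counts in the shLarp1 IP and 17410, 17447 and 17532 in the control IP. All shLarp1 counts were below all control counts, and the relative change was -0.29 (-0.31 to -0.27). Rps28, a head protein near the mRNA exit, had 2483, 2361 and 2346 counts in the shLarp1 IP and 2817, 2545 and 2669 in the control IP, with a relative change of -0.23 (-0.28 to -0.19). At the other end of this group, Rps3, which lines the mRNA entry, had 4657, 4581 and 4624 counts in the shLarp1 IP and 4393, 4346 and 4527 in the control IP. Its counts were higher in every shLarp1 column, in libraries with slightly larger totals, and its relative change of -0.01 had an interval across 0 (-0.04 to 0.02). Rps27a, made as a fusion with ubiquitin, had 8578, 8486 and 8804 counts in the shLarp1 IP and 8155, 8302 and 8145 in the control IP, with an interval of -0.03 to 0.02 around the median of all genes. Of the 12 head and beak mRNAs, 10 had their whole interval below the median of all genes.

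Among the 10 mRNAs of the body, 9 had their whole interval below the median of all genes and 1 above. Rps2, which sits close to the mRNA entry, had 457, 579 and 494 counts in the shLarp1 IP and 631, 594 and 577 in the control IP. The highest shLarp1 column exceeded the lowest control column by 2 counts, and the relative change was -0.31 (-0.41 to -0.21). Fau, made as a fusion of a ubiquitin-like protein with a ribosomal protein, had 9102, 9494 and 9274 counts in the shLarp1 IP and 8796, 8548 and 8536 in the control IP. It was the only mRNA of the set with its interval above the median, at 0.03 (0.01 to 0.06). Rps6, the substrate of S6 kinase, stood at -0.06 and Rps7 at -0.09.

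Of the 6 platform mRNAs, 4 lay below the median gene in the IP. Rpsa, also known as the laminin receptor, had 2746, 2715 and 2723 counts in the shLarp1 IP and 3026, 2936 and 2902 in the control IP. The shLarp1 counts were the lower in all columns, with a relative change of -0.19 (-0.23 to -0.14). Rps14, a platform protein whose gene is lost in a human myelodysplastic syndrome, had 8761, 8630 and 8530 counts in the shLarp1 IP and 9067, 9130 and 9066 in the control IP, a relative change of -0.15 (-0.17 to -0.12). Rps3a1, a platform protein beside the mRNA exit, had 4602, 4504 and 4596 counts in the shLarp1 IP and 4358, 4359 and 4384 in the control IP and lay at -0.01, with an interval across the median of all genes (-0.04 to 0.03).

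In the input the set spread to both sides of the median of all genes. The interval lay below the median of all genes for 14 mRNAs, above it for 9 and across it for 5, where 5.54% of all genes lay below and 12% above. Among the 543 genes with at least 1000 input counts 12.9% lay below and 72.7% above, and their median was 0.40 above that of all genes. All 28 mRNAs lay below the median of these abundant genes, the highest being Rps28 at 0.28. The median relative change of the set was -0.09, and the SD among the 28 was 0.25, with 0.05 for counting error alone. Members with higher scaled levels lay higher, with a Pearson r of 0.70 and a Spearman rho of 0.78 between level and input change over the 28. In the IP these were 0.22 and 0.11. The level is the mean log2 scaled count over the 4 groups, so it contains the groups whose ratio it is set against. These are descriptions over mRNAs of the same libraries, with counts that were not divided by length.

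By the 1.5-fold rule 1 of the 28 was called in the input, Rps12, where 1.19% of all genes were called (1.01% lower). Rps12 had 1079, 1056 and 1023 counts in the shLarp1 input and 1433, 1487 and 1466 in the control input, although the shLarp1 columns were the deeper. Its scaled log2 ratio was -0.67 (-0.74 to -0.60) and its relative change -0.53. The call ended when any 1 input column was left out and with DESeq2, upper-quartile or control-IP-referenced scaling, since these shift the scale of the input, whereas total counts called 5 members. The direction of calls over all genes turns with the scaling as well, with 13 higher and 77 lower by TMM, 181 and 35 with DESeq2 size factors, 117 and 43 with upper-quartile factors, 214 and 29 with TMM on a control IP column, and 7 and 204 with total counts. Rps12 was also the lowest in the IP, so it was the member furthest below the median of all genes in both fractions.

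The other low members of the input were proteins of the platform (Rpsa, Rps3a1) and the body (Rps2, Rps4x). Rpsa had 413, 405 and 401 counts in the shLarp1 input and 565, 601 and 502 in the control input, a relative change of -0.51 (-0.62 to -0.40). Rps2 had 92, 78 and 82 counts in the shLarp1 input and 110, 118 and 107 in the control input, and its interval was wide (-0.71 to -0.23, around -0.47). Rps3a1 had 583, 574 and 547 counts in the shLarp1 input and 710, 754 and 786 in the control input, a relative change of -0.46 (-0.55 to -0.37). In all of them the counts with shLarp1 were below those with the control virus in libraries that were deeper, with no overlap. Rps4x, an X-linked body protein, had 309, 287 and 281 counts in the shLarp1 input and 390, 385 and 321 in the control input (-0.38, -0.51 to -0.25). In the IP Rps4x had 2412, 2393 and 2340 counts with shLarp1 and 2466, 2323 and 2396 with the control virus, which overlap (-0.08, -0.13 to -0.03).

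The highest members of the input were 3 head proteins, a platform protein and Fau. Rps28 had 3882, 3764 and 3791 counts in the shLarp1 input and 3005, 2978 and 3065 in the control input, a relative change of 0.28 (0.24 to 0.32). Rps14 had 1638, 1571 and 1655 counts in the shLarp1 input and 1392, 1243 and 1256 in the control input, a relative change of 0.27 (0.20 to 0.33). Rps19 had 3391, 3391 and 3410 counts in the shLarp1 input and 2734, 2730 and 2740 in the control input, a relative change of 0.26 (0.21 to 0.30). For these mRNAs all shLarp1 counts exceeded all control counts, and the scaled log2 ratios were 0.14, 0.12 and 0.12 in that order, in libraries with larger totals. Fau had 1913, 1945 and 1968 counts in the shLarp1 input and 1607, 1582 and 1661 in the control input (0.21, 0.15 to 0.26). Rps29, a head protein, followed at 0.20 (0.17 to 0.24). Rps27a and Rps3 lay on the low side, Rps27a with 1227, 1235 and 1243 counts in the shLarp1 input and 1240, 1272 and 1280 in the control input (-0.09, -0.16 to -0.02). Rps3 had 677, 693 and 627 counts in the shLarp1 input and 781, 741 and 729 in the control input (-0.23, -0.32 to -0.14). By location, the medians were 0.04 for the head and beak, -0.09 for the body and -0.28 for the platform, with ranges that overlap.

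**Figure D2:**
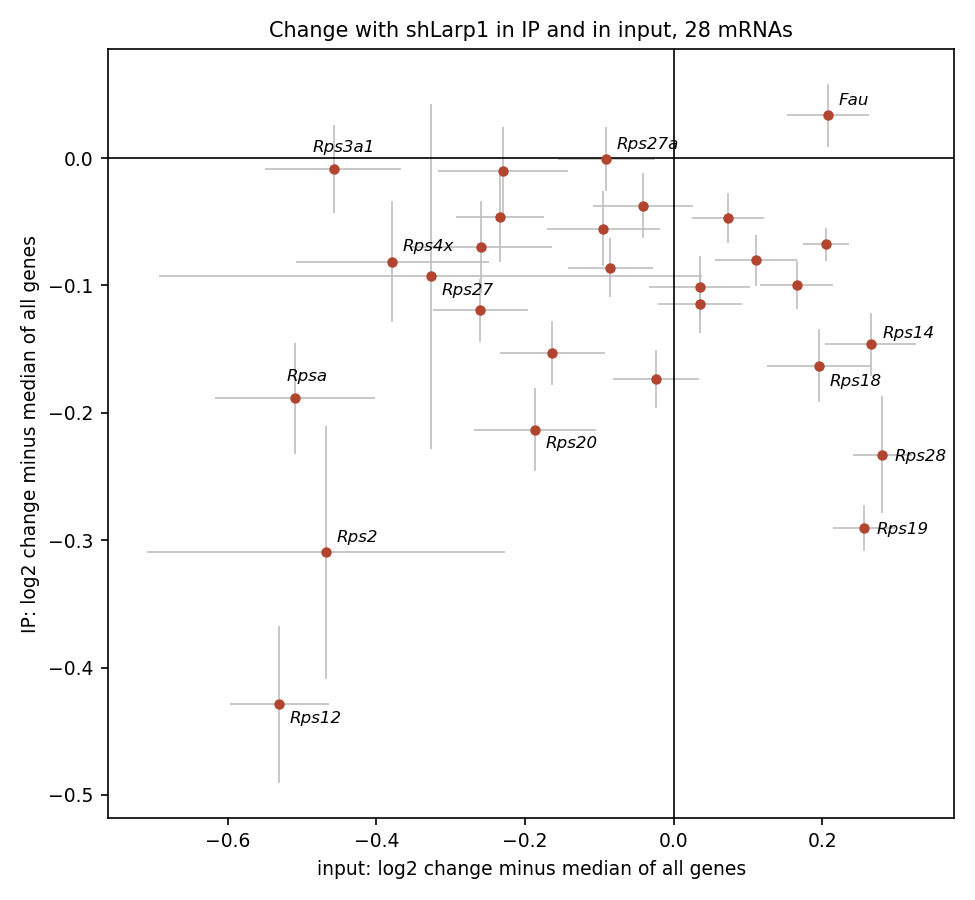
Relative log2 change with shLarp1 in the input (x axis) and in the IP (y axis), both minus the median of all genes, with 95% counting intervals; each point is 1 of the 28 mRNAs. Rps12, Rps2 and Rpsa lie low on both axes, and Rps19, Rps28, Rps14 and Rps18 lie low in the IP and above the median of all genes in the input.

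The IP and input changes of the 28 mRNAs were hardly related (Pearson r 0.17, Spearman rho 0.04; without Rps12 -0.04 and -0.08). The difference between them was read as an interaction, the log2 ratio of shLarp1 to control in the IP minus that in the input, again relative to the median of all genes. None of the 28 was called beyond 1.5-fold, where 6.96% of all genes were. Its interval lay below the median of all genes for 12 mRNAs and above it for 9, where 13% of all genes lay below and 8.07% above; among the 1779 genes with at least 1000 counts, 32.5% lay below and 19.3% above. The SD among the 28 was 0.25, with 0.06 for counting error alone.

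The lowest interactions belonged to Rps19 (-0.56, -0.60 to -0.51), Rps28 (-0.52, -0.58 to -0.46), Rps14 (-0.42, -0.49 to -0.35) and Rps18 (-0.37, -0.44 to -0.29). Rps18, a head protein at the contact with the large subunit, had 6411, 6610 and 6363 counts in the shLarp1 IP and 6791, 6995 and 6839 in the control IP. In the input it had 1218, 1200 and 1198 counts with shLarp1 and 998, 1044 and 993 with the control virus. It was thus lower in all shLarp1 columns of the IP and had more counts in all shLarp1 columns of the deeper input. The highest interactions belonged to Rps3a1 (0.44, 0.34 to 0.54), Rpsa (0.31, 0.20 to 0.43), Rps4x (0.29, 0.15 to 0.42) and Rps27 (0.22, -0.15 to 0.60). The first 3 of them were low in the input and nearer to that median in the IP. Rps27, a zinc-finger protein, rests on few counts, 300, 311 and 274 in the shLarp1 IP and 295, 298 and 304 in the control IP. In the input it had 41, 36 and 40 counts with shLarp1 and 42, 56 and 43 with the control virus. Its intervals crossed the median of all genes in every comparison of the viruses.

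Copies of these genes limit some values. Rps27rt, a retrogene copy of Rps27, had 38014 counts in the shLarp1 IP and 41280 in the control IP, and the paralog Rps27l had 11781 and 12548 in the same order. How reads were divided among these genes is not given in the sources used here, so the values of Rps27 are uncertain. Summed with both copies, Rps27 had a relative change of -0.18 in the IP and 0.24 in the input, in place of -0.09 and -0.33, and its interaction turned to -0.43 (-0.48 to -0.39). Rps13-ps1, a pseudogene copy of Rps13, had 18301 counts in the shLarp1 IP and 19827 in the control IP but 0 in all 6 input columns. Rps4l, the copy of Rps4x, had 861 counts in the shLarp1 IP and 655 in the control IP, and with it added the relative change of Rps4x was -0.04 in the IP, where its interval then crossed the median of all genes (-0.09 to 0.002), and -0.37 in the input.

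Because shares within the set need no scaling, they show the same reordering directly. Rps19 made up 6.67% of the 28 mRNAs' counts in the shLarp1 IP (6.61 to 6.73) and 7.59% in the control IP (7.53 to 7.66), but 7.99% in the shLarp1 input (7.84 to 8.14) and 6.86% in the control input (6.72 to 7.01). Fau made up 4.13% in the shLarp1 IP and 3.75% in the control IP, and 4.57% in the shLarp1 input and 4.06% in the control input. Rpsa had the smaller share in both fractions, with 1.21% in the shLarp1 IP and 1.28% in the control IP, and 0.955% in the shLarp1 input and 1.40% in the control input. Over the whole set, the share in all 3 shLarp1 columns was lower than in all control columns for 9 mRNAs in the IP and 17 in the input, and higher for 11 in the IP and 9 in the input. Set against the same summed counts of the 28, 17.7% of all genes had no overlap and lay lower in the IP and 30.5% higher, and in the input 11.9% lay lower and 12.2% higher. Among genes with at least 1000 counts the shares were 28.4% lower and 49% higher in the IP, and 14.9% lower and 68.5% higher in the input. The columns overlapped for 8 mRNAs in the IP and 2 in the input, Rps15 and Rps16.

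**Figure D3:**
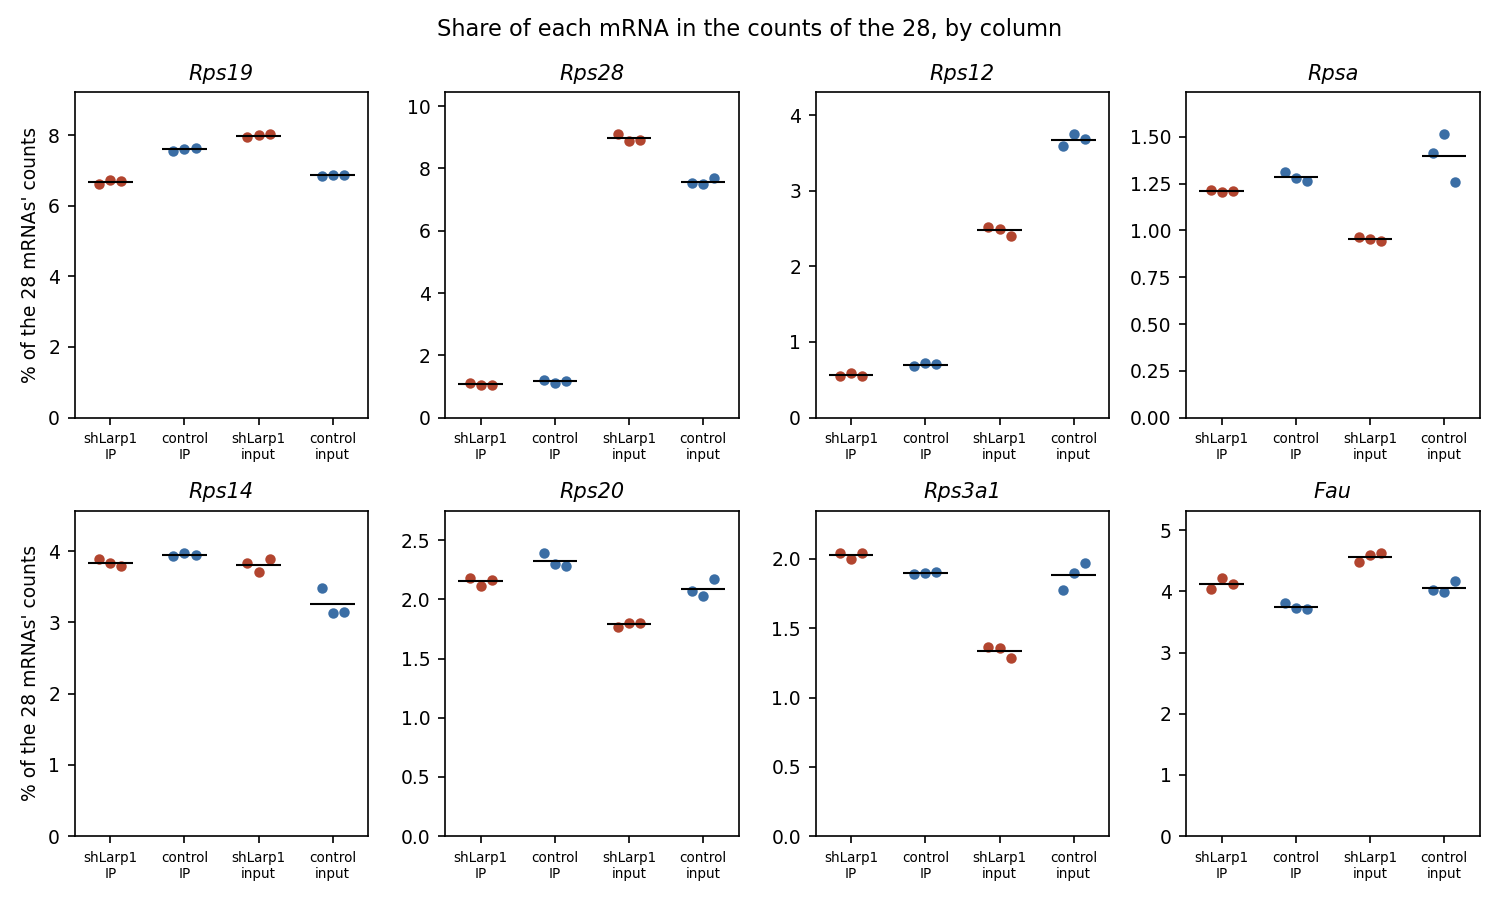
Share of the 28 mRNAs' summed counts (%, y axis from 0) taken by 8 of them in each column, from left to right shLarp1 IP, control IP, shLarp1 input and control input; points are columns and the line is their mean. Rps19 is below control in the shLarp1 IP and above it in the shLarp1 input, Rps3a1 shows the reverse, and Rps28 and Rps12 hold small shares in both IP groups.

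Set against the median gene, the IP held less of every small-subunit mRNA than the input did with either virus. All 28 intervals lay below the median of all genes with shLarp1 and with the control virus, where 29.7% and 29.6% of all genes did in that order, and the median relative log2 ratio of IP to input was -1.40 with shLarp1 and -1.17 with the control virus. Among genes with at least 1000 counts, 70.8% (shLarp1) and 74.2% (control) lay below. By the 1.5-fold rule on the scaled ratio, 15 mRNAs were called lower in the IP with shLarp1 and 22 with the control virus, where 15.1% and 14.4% of all genes were called lower (31.9% and 27.2% in either direction). Counts called in either direction move with the processing, from 10 to 28 with shLarp1 and 3 to 28 with the control virus over all alternatives. The direction of the scaled ratio turns as well. With total counts it was below 0 for only 3 mRNAs with shLarp1 and 6 with the control virus. Its median over the 28 was then 0.62 and 0.22 in the same order. The count of whole intervals below the median of all genes was 28 in all 19 alternatives of scaling, filter, columns and copies. Large-subunit mRNAs had medians of -1.21 with shLarp1 and -1.03 with the control virus, with the whole interval of 47 of 48 below the median of all genes in each.

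A few mRNAs stood far below the rest of the set. Rps28 had 7190 counts over the shLarp1 IP and 11437 over the shLarp1 input, whose total is smaller, and 8031 over the control IP and 9048 over the control input. Its relative log2 ratio of IP to input was -4.74 (-4.78 to -4.70) with shLarp1 and -4.02 (-4.07 to -3.98) with the control virus. For Rps12 the ratio was -3.81 (-3.88 to -3.74) with shLarp1 and -3.71 (-3.77 to -3.65) with the control virus. Rps13, a platform protein, stood at -2.43 with shLarp1 and -2.42 with the control virus. With its pseudogene copies added, which had no input counts, its relative log2 ratio was -1.19 with shLarp1 and -1.09 with the control virus. The other 25 mRNAs lay between -1.92 and -1.04 with shLarp1 and between -1.44 and -0.85 with the control virus. Rps13 summed with its copies thus lay within the range of these 25 with either virus. Rps21, Rps15 and Rps25 were the highest of the set with the control virus, at -0.85, -0.85 and -0.86.

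**Figure D4:**
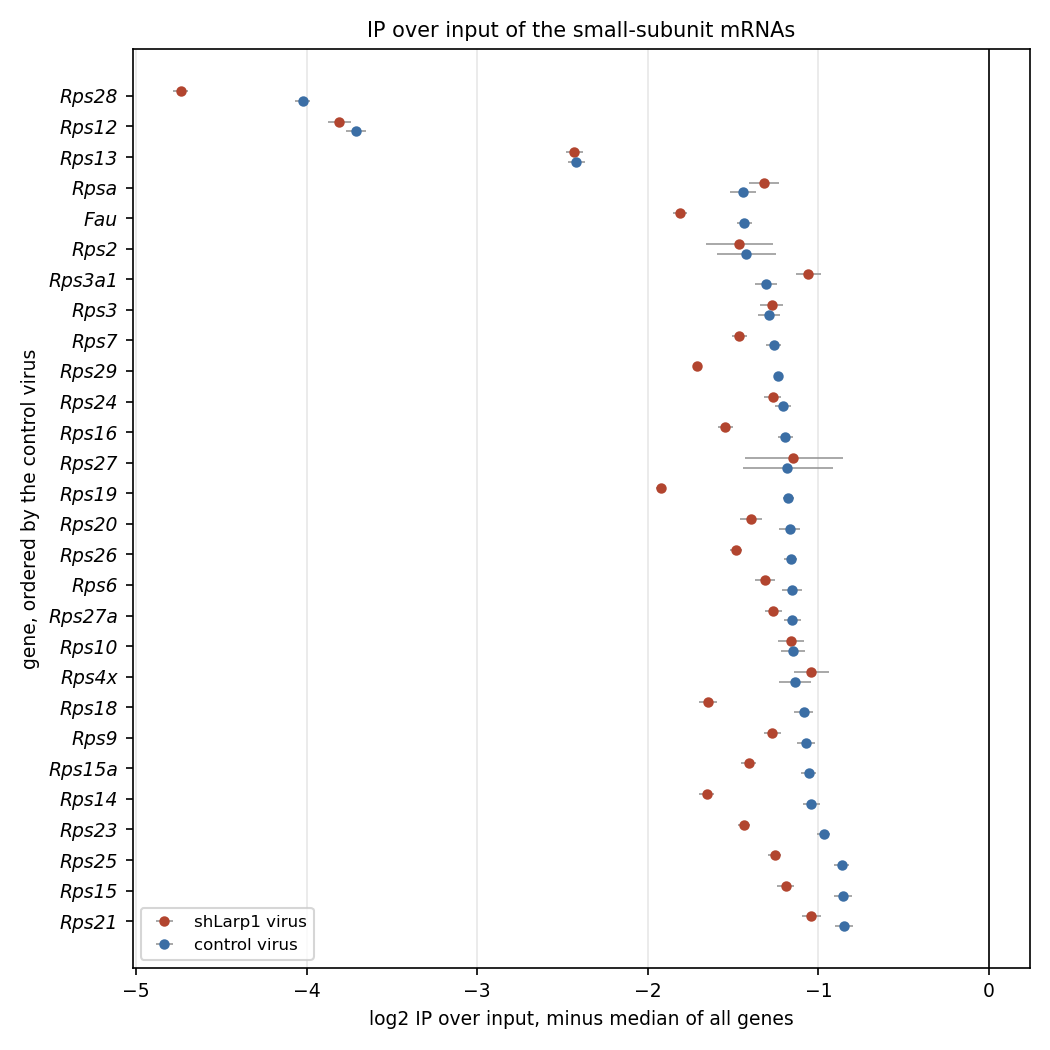
Relative log2 ratio of IP to input (x axis, minus the median of all genes) of the 28 mRNAs with the shLarp1 virus (red) and the control virus (blue), with 95% counting intervals, ordered by the control virus. All points lie left of 0, and Rps28, Rps12 and Rps13 (without its pseudogene copies) lie apart from the other 25.

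Genes that act on the same mRNAs or on the same subunit were read beside the set, with scaled log2 ratios for those called. Of all genes, 5.12% were called in the IP, 1.19% in the input and 6.96% in the interaction. Of 19 tested genes of TOP and mTORC1 regulation, 2 were called lower in the IP, Larp1 and Pabpc1, the cytoplasmic poly(A)-binding protein, at a scaled log2 ratio of -1.22 (-1.38 to -1.05), and none in the input. In the interaction Tia1, an RNA-binding protein of stress granules, was called lower at -1.66 (-2.29 to -1.02). The other interaction calls in these lists were Dcaf13 (higher, 2.35), the large-subunit mRNAs Rpl10 (higher, 0.86) and Rpl6 (higher, 0.70), and Ptcd3 of the mitochondrial small subunit (lower, -1.23). Of 39 tested assembly factors of the small subunit, 1 was called in the IP, Wdr43 at -1.42 (-1.96 to -0.90), and 1 in the input, Dcaf13 at -2.52 (-4.53 to -0.94), both lower and both proteins of the early nucleolar particle. The assembly factors had a median scaled log2 ratio of -0.07 in the IP and -0.20 in the input, against -0.08 and -0.14 for all genes. Among 48 large-subunit mRNAs none was called in the IP and 3 were called lower in the input, Rpl10, Rpl3 and Rplp0. Such input calls move with the scaling, since DESeq2 size factors shift the input log2 ratios up by 0.21. Rpl3 and Rplp0, with upper bounds of -0.69 and -0.61, then fall short of 1.5-fold. The 48 large-subunit mRNAs had a median relative change of -0.06 in the IP, with 28 whole intervals below the median of all genes and 7 above. In the input it was -0.06, with 23 whole intervals below and 14 above. The difference from the small-subunit set was not tested. Of 30 tested mitochondrial small-subunit mRNAs, none was called in the IP or the input, and their median relative change was 0.04 in the IP and 0.05 in the input.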

How the data were processed

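The authors deposited estimated counts, whole numbers without depth scaling, made with minimap2 and Salmon and the builds GRCm39 and mm39, per the submitters' processing notes. Versions, annotation release and strand use are not stated there. Per the labels' protocols, libraries came from a nanopore cDNA-PCR barcoding kit; no molecular identifiers are mentioned, so intervals cover counting error only. A gene name table gave symbols for 13711 of 15391 genes. The 3 columns of a group were summed, since the labels name no separate cultures and over all genes the columns differed by about sampling noise. This departs from a replicate test; edgeR 4.0.16 (R 4.3.3) quasi-likelihood and DESeq2 1.42.0 tests with columns as replicates were run as alternatives. Genes passed filterByExpr (minimum count 10). Ratios of TMM-scaled sums have exact Clopper-Pearson intervals (95%); for interactions 0.5 counts were added and the interval is a normal approximation. A gene was called where its interval lay wholly beyond 1.5-fold; the reading against the median of all genes was added after seeing the data. Values in every column are given for the 4 highest and 4 lowest members of IP, input and interaction and for members called between the viruses. The members and lists were chosen with earlier results of these data known. The scripts were tested on simulated counts. Python 3.11.15 with scipy 1.17.1 was used.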

Additional observations from a re-analysis of the deposited data

Results flagged for a closer look

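For 8 of the 28 mRNAs the change with shLarp1 lay below the median of all genes (whole counting interval) within the IP and above it in the input. The same held for 6.73% of all 7581 genes with both values and for 50.7% of the 542 of them with at least 1000 input counts. In the input all 8 lay below the median of the genes with at least 1000 input counts, which was 0.40 above that of all genes. With 1 sample per group the difference was not tested against replicate spread. The relative log2 interaction (IP change minus input change, minus the median of all genes) was -0.56 for Rps19, -0.52 for Rps28, -0.42 for Rps14 and -0.37 for Rps18. It was -0.28 for Rps29, -0.27 for Rps23, -0.20 for Rps25 and -0.13 for Rps26. Of the 8, Rps18, Rps19, Rps25, Rps28 and Rps29 are proteins of the head, Rps23 of the body, and Rps14 and Rps26 of the platform. Sensory neuron markers summed to 1605 CPM in the shLarp1 input and 2684 in the control input, with a median scaled log2 ratio of -0.30 and 5 of 15 above 0, and their part in these differences was not tested.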

How the results depend on the processing

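Relative to the median of all genes, 22 to 26 of the 28 mRNAs had their whole interval below it in the IP over 19 alternatives. In the input 11 to 17 did, and in the interaction 12 to 13. Counts past 1.5-fold depend on the scaling. In the input they were 0 with DESeq2 size factors, upper-quartile factors or TMM on a control IP column and 5 with total counts. In the interaction they were 2 lower with DESeq2 size factors, 2 higher with total counts and 1 lower with TMM on a control IP column, so the direction turns with the scaling. For IP over input with shLarp1 they were 28 with upper-quartile factors and 24 with TMM on a control IP column, and with the control virus 3 with total counts and 10 without the filter. Beyond 5/4-fold, 2 (IP), 6 (input), 3 (interaction) and 24 (IP over input, shLarp1) were called, where 14.4%, 6.35%, 11.8% and 41.5% of all genes were, and beyond an equal scaled level 28, 25, 22 and 28, where 43%, 18.2%, 21.6% and 57.6% were. Taking columns as replicates, edgeR's quasi-likelihood test called 26, 22, 17 and 28 (27.7%, 8.88%, 11.1% and 61.2% of genes tested), the same numbers with a replicate block, and DESeq2's Wald test 26, 19, 16 and 28 (21.4%, 17.1%, 18.4% and 52.9%). The tools differ in direction, with 4 higher and 18 lower in the input by edgeR and 10 and 9 by DESeq2, and 9 and 8 in the interaction by edgeR and 1 and 15 by DESeq2. Same-numbered columns correlated at -0.06 to 0.04 between viruses and between IP and input, under the 0.1 taken as pairing. The median of the set was -0.13 in the IP without genes absent from the input; against genes with at least 1000 counts it was -0.49 in the input, and -0.53 (shLarp1) and -0.38 (control) for IP over input. Leaving out each column gave medians of -0.10 to -0.09 (IP), -0.16 to -0.076 (input), -0.03 to 0.02 (interaction), -1.39 to -1.25 (IP over input, shLarp1) and -1.21 to -1.001 (control). Calls were 0 to 0, 0 to 1, 0 to 0, 14 to 22 and 16 to 22 in the same order. Leaving out a column changes the column TMM refers to, which moves the calls. It also changes the genes past the filter, and with them the median of all genes that is subtracted. In the IP that median was over 8766 genes, but over 5535 without shLarp1 IP replicate 1 and 11305 without shLarp1 input replicate 1. Relative values of single mRNAs move with that median. Leaving out a column took them outside their own interval in 115 cases and kept them inside in 221 in the input. The numbers were 1 and 335 in the IP and in the interaction. For IP over input they were 167 and 169 with shLarp1, and 163 and 173 with the control virus. With the control virus, 26 of the 28 moved when shLarp1 IP replicate 1 was left out, a column which that ratio does not use. Without genes absent from the input, 20 of the 28 IP values moved so, with their counts unchanged and 7558 genes in the median. How far the filter accounts for the other shifts was not tested. Input depth limits Rps2 and Rps27 most.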
